A study of Mus musculus with 6 samples.

Results

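Mouse chromosome 19 carried 418 genes with a mean of at least 2 CPM (read counts scaled to a common library total) over the 6 libraries, of 1390 chromosome 19 rows and 55334 rows in the deposited table. They were chosen by position in GRCm38 and by that mean level, and are described here in order of their start. The chromosome itself was picked because earlier counts of this comparison showed more falls than rises there. The number of its genes that fell is therefore a description, and the profile along the chromosome asks whether the fall was spread over its length or held in segments. At the threshold, Ch25h (1.98 CPM) lay just outside and Tigd3 (2.06 CPM) just inside.

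The RNA came from Lewis lung carcinoma, a mouse lung cancer line, carrying green fluorescent protein. Scramble cells had a scrambled guide RNA and JAG2KO cells one targeting Jag2, which encodes a ligand of Notch receptors. Both were grown as tumours in the flanks of mice, and living tumour cells were sorted for the fluorescent protein and against the blood cell marker CD45. Each group had 3 libraries, of 37036772 to 43923565 counts. The sources used here do not give the mouse strain and age, or whether either line was a single clone. Separate mice for the libraries are not stated, so a p-value reflects the scatter among these libraries alone, and that scatter may be technical. JAG2KO libraries are named by their columns, JagKO2, JagKO3 and JagKO4.

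Chromosome 19 is the shortest mouse autosome and is known for a gene-dense first stretch. Its genes do not form a pathway: they include the Ifit genes of the interferon response, the death receptor gene Fas, fatty acid desaturase genes, and the nuclear RNAs Malat1 and Neat1. Neighbouring genes can share a change or move independently, and a shared shift shows as a long run of values on the same side of 0.

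The cluster of 4 Ifit genes gave the densest group of large falls, in Ifit1, Ifit3 and Ifit3b. The start sites of these genes are shown for that reason, and those of Ifit2, which fell less, are not. IFIT proteins are induced by interferon and bind foreign RNA. The interferon-stimulated response element, the site through which interferon acts on such genes, was searched on both strands as GAAA, any 2 bases, and a further GAAA, with no other motif searched. It is in capitals, read from the other strand, in the RefSeq windows (GRCm38.p6, plus strand, 250 bases before to 50 after the start) of Ifit1 (chr19:34640639-34640938), Ifit3 (chr19:34583279-34583578) and Ifit3b (chr19:34607707-34608006).
Ifit1: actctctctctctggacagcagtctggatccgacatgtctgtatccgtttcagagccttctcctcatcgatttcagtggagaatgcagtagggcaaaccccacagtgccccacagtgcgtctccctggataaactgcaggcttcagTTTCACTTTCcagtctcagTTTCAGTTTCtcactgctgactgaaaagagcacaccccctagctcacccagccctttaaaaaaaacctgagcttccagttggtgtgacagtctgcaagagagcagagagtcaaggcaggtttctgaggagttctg
Ifit3: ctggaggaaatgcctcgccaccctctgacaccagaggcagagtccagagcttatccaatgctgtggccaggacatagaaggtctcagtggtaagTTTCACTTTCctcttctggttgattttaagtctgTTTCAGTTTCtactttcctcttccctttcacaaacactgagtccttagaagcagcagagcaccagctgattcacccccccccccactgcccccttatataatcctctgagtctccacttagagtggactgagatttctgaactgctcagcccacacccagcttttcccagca
Ifit3b: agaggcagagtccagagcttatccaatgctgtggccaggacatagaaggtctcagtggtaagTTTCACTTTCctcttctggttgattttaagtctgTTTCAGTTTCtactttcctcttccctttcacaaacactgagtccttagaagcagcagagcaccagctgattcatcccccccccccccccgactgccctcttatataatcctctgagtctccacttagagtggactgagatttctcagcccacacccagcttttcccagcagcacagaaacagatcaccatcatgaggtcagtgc

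Each of these 3 windows held 2 matches, which began 104 and 85 bases before the start in Ifit1 and 156 and 122 bases before it in Ifit3. The RefSeq windows of Ifit2 held none. The motif was in a window of 3.99% of the 27025 genes with RefSeq windows, and of 10 of the 336 chromosome 19 genes matched by symbol (2.98%). A match describes the letters only.

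Most chromosome 19 genes were slightly lower in JAG2KO. By edgeR's quasi-likelihood test over all genes, with Benjamini-Hochberg adjusted p under 0.05 as the threshold, 129 of the 418 fell, 31 rose and 258 did not pass. Over all 16049 tested genes 12.5% fell and 11.8% rose, and among genes of the same minimum level on other chromosomes 14.9% fell and 14.6% rose. On chromosome 19 the shares were 30.9% and 7.42%. The 3 JAG2KO values lay wholly below the 3 Scramble values for 175 members (41.9%) and wholly above them for 43 (10.3%). The background for these was 20.9% and 19.5% over all tested genes, and 24.1% and 22.2% over genes of the same minimum level elsewhere.

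The size of the shift was small. The median log2 fold change of the members was -0.15, with quartiles of -0.31 and 0.03, which puts the median member 10.1% below Scramble. Elsewhere the median was 0.00, with quartiles of -0.19 and 0.19. Values were below 0 for 291 members, 69.6%, against 50.5% elsewhere. The shift was also present among members that did not pass the test: their median was -0.07 and 62.8% of them were below 0, against 50.4% of such genes elsewhere. In their estimate, 17 of the 418 members changed at least 2-fold, beside 533 of 11078 genes of the same minimum level elsewhere. Without those 17 members the median was -0.15.

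Every JAG2KO library showed it. Against the mean of Scramble, the members' median log2 difference was -0.13 in JagKO2, -0.16 in JagKO3 and -0.17 in JagKO4. Each Scramble library set against the other Scramble libraries gave 0.00, 0.03 and -0.02. Over the 9 pairings of a JAG2KO with a Scramble library, the median ranged from -0.18 to -0.12, while the median of genes elsewhere stayed between -0.0149 and 0.00306. Members' counts made up 4.2% to 4.25% of the Scramble libraries and 3.84% to 4.03% of the JAG2KO libraries, and these ranges did not overlap.

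**Figure D1:**
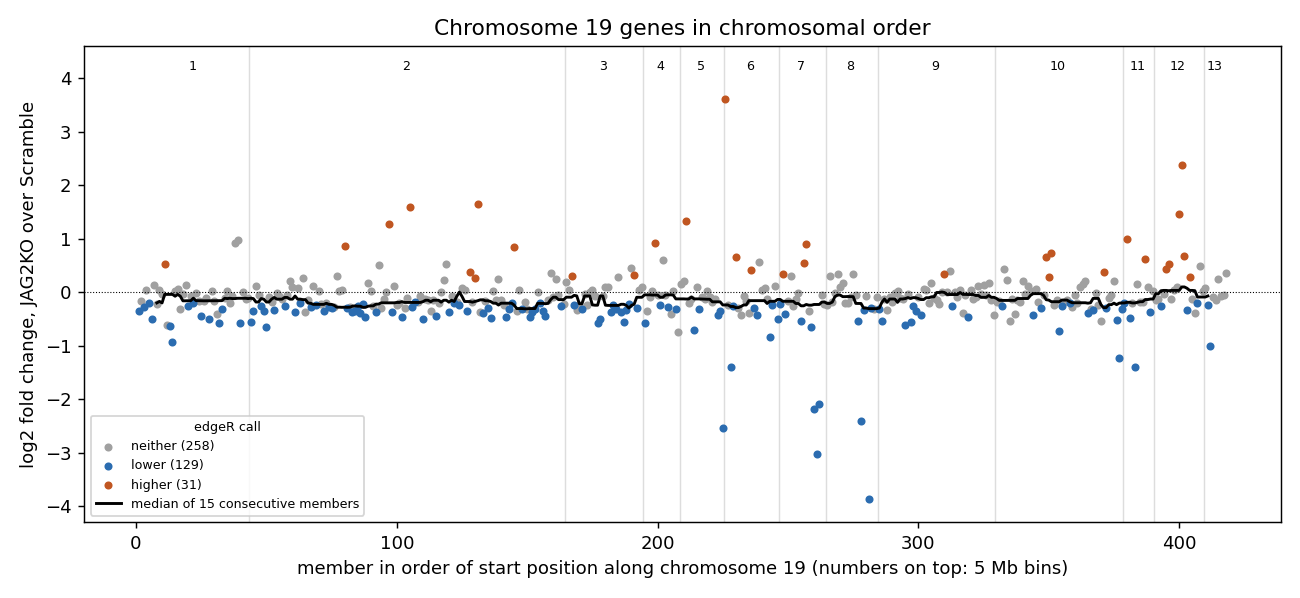
Log2 fold change of each of the 418 members (1 point each, coloured by edgeR call) in order of start along chromosome 19, with the median of 15 consecutive members as a black line and grey lines between 5 Mb bins. The black line stays just below 0 for 388 of 404 windows, and the few large changes are single genes or short groups.

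The fall was spread along the chromosome. Of 13 bins of 5 Mb, 12 had a median below 0, from -0.24 (25 to 30 Mb) to -0.07 (60 to 65 Mb). In the 11 bins from the start of the chromosome to 55 Mb, all 9 library pairings gave a median below 0. The bin of 5 to 10 Mb held the most members, 121, of which 46 fell and 7 rose, with a median of -0.20. The bin of 15 to 20 Mb held 14 members, of which 4 fell and 1 rose, with a median of -0.16. The median GC content of the members' transcripts was 55.5% in the first of these bins and 47.2% in the other.

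The bin of 55 to 60 Mb was the exception. Its 19 members had a median of 0.03, with 3 that fell and 6 that rose, and 4 of its 9 library pairings lay below 0. With GC content and length trends removed, all 13 bin medians were below 0. Of the 16 windows of 15 members at or above 0, 14 followed each other near this bin, from Smc3 to Eif3a (53.6 to 60.8 Mb). Their medians were 0.03 to 0.10. The window with the lowest median, -0.31, ran from Polr2g to Mta2.

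**Figure D2:**
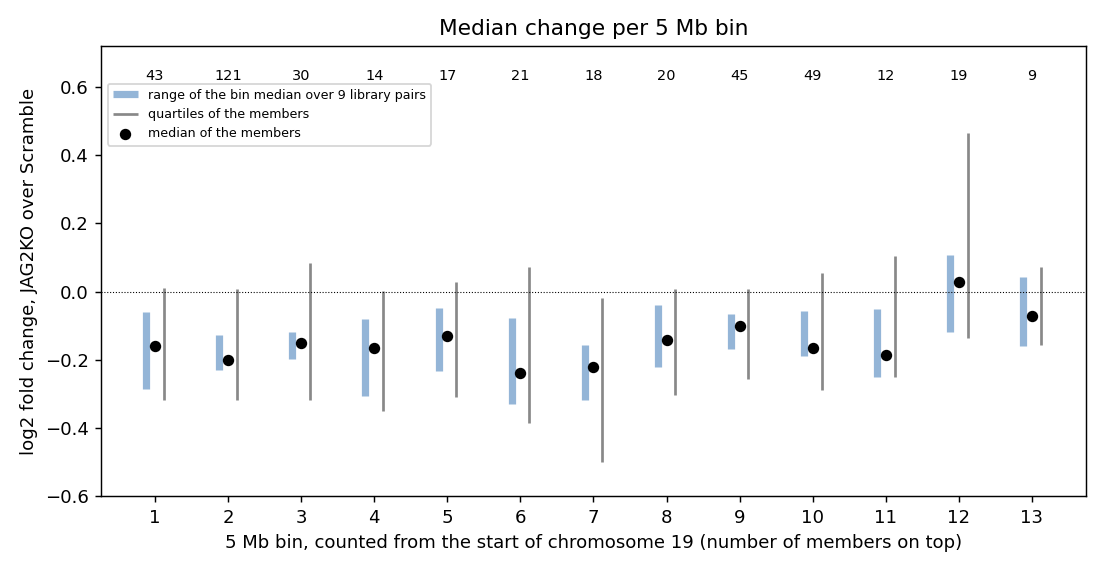
Median log2 fold change per 5 Mb bin of chromosome 19 (black points), with the members' quartiles (grey lines) and the range of the bin median over the 9 JAG2KO and Scramble library pairings (blue bars); numbers on top count the members. Bins 1 to 11 lie below 0 in all pairings, bin 12 has a median of 0.03 and bin 13 has a median of -0.07.

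A piecewise-constant fit divides the ordered members into stretches of at least 10 with 1 median each. It kept the chromosome as 1 stretch from Ighmbp2 to Zfp950. Whether the fit finds steps as small as the members' median shift, or steps in short stretches, was not tested. Ighmbp2, a helicase gene and the first member (3259076 to 3283017), fell by 0.34 on the log2 scale (adjusted p = 0.02, edgeR). It lost its call without Scramble replicate 1, JagKO3 or JagKO4 (adjusted p = 0.0508 to 0.101), and its exons overlap Mrpl21 on the other strand. Zfp950, a zinc finger gene and the last member (61053840 to 61140840), had a log2 fold change of 0.36 and did not pass (adjusted p = 0.0718), but did without Scramble replicate 1 (adjusted p = 0.0469). When stretches of 5 members were allowed, the fit set apart Lipa to Ifit1, with a median of -2.09. The rest then formed a first part with a median of -0.18 over 257 members and a last part with a median of -0.12 over 156. Repeating the fit without each of the 9 library pairs gave 1 stretch in 7 cases and 2 in the other two. Of the 12 or 13 bins below 0 in the remaining 4 libraries, 11 to 13 were also below 0 in the pair left out. The chromosome was picked with all libraries known, so the pair left out is not independent of that choice.

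The members' median was below 0 at every expression level, transcript length and base composition compared, each split into 3 groups of near equal size. Split into low, middle and high mean CPM, the members' medians were -0.09, -0.17 and -0.17, against 0.01, -0.01 and 0.00 elsewhere within the same bounds. Split by low, middle and high transcript GC content, they were -0.12, -0.16 and -0.18, against 0.01, -0.02 and 0.00 elsewhere. Short, middle and long transcripts gave -0.18, -0.22 and -0.09, against -0.05, -0.02 and 0.06 elsewhere, so both sets had higher values among long transcripts. The 261 members whose exons overlap no other gene had a median of -0.14, and the 400 protein-coding members -0.15.

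Of 20 chromosomes, chromosome 19 had the third lowest median, after X (-0.18) and chromosome 12 (-0.16). The shares called lower were 27.7% on X, 32.7% on chromosome 12 and 29.9% on chromosome 6, where 15.3% were called higher and the median was -0.07. At the other end stood chromosome 3, where 5.16% were lower and 32.5% higher. No test of a difference between chromosomes was made.

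**Figure D3:**
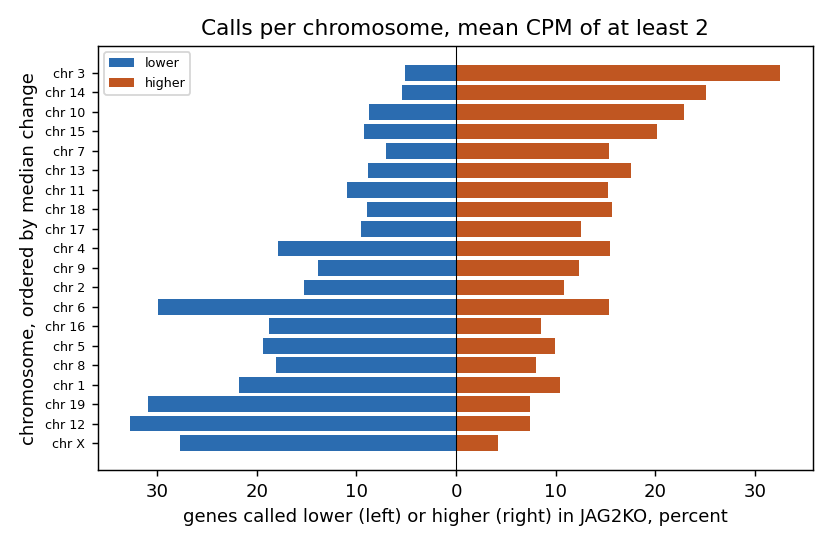
Percent of genes at or above 2 CPM on average called lower (blue, left) or higher (orange, right) in JAG2KO on each chromosome, ordered by median log2 fold change. Chromosome 19 (30.9% lower, 7.42% higher) lies beside chromosome 12 and X at the bottom, and chromosome 3 is at the top.

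Against this small shift, some genes changed far more. The largest fall was in Plce1, which encodes a phospholipase C that answers to Ras proteins (plus strand, 38481109 to 38785030). Its levels were 15.5, 18.8 and 13.9 CPM in Scramble (replicates 1, 2 and 3, in that order here and below) and 1.03, 1.09 and 1.15 CPM in JagKO2, JagKO3 and JagKO4. The JAG2KO values were all low and close together, and far from those of Scramble. Its log2 fold change was -3.87 with an SE of 0.18 (adjusted p = 3.41e-08, edgeR), a level 14.7-fold lower.

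Rbp4, the gene of the plasma carrier of retinol, lies near Plce1 (minus strand, 38116629 to 38125281) and fell too. It measured 24.8, 28.2 and 29.0 CPM in Scramble and 3.65, 6.12 and 5.54 CPM in JAG2KO, with no overlap. The log2 fold change was -2.42 with an SE of 0.17 (adjusted p = 1.28e-06, edgeR). The genes between and beside them changed less: Cep55, a gene of the last step of cell division, fell by 0.55 on the log2 scale (adjusted p = 0.000327). Slc35g1 had a log2 fold change of -0.08 (adjusted p = 0.5). Noc3l, which starts 3.1 kb past the end of Plce1, fell by 0.30 (adjusted p = 0.0217), a call lost without Scramble replicate 1 or 2 (adjusted p = 0.0749 to 0.116).

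The neighbours Dock8 and Kank1 changed in opposite directions. Dock8 encodes an exchange factor for the small GTPase Cdc42 (plus strand, 24999534 to 25202432), and Kank1 a regulator of the actin cytoskeleton and cell cortex (plus strand, 25236975 to 25434496). Their gene models lie 34.5 kb apart. Dock8 measured 9.88, 9.68 and 11.9 CPM in Scramble and 1.51, 1.78 and 2.08 CPM in JAG2KO. Kank1 measured 0.612, 0.206 and 0.254 CPM in Scramble and 5.81, 3.65 and 3.90 CPM in JAG2KO. In both genes every JAG2KO value lay outside the Scramble range. The log2 fold change of Dock8 was -2.54 (SE 0.19, edgeR adjusted p = 2.26e-06). That of Kank1 was 3.62 (SE 0.40, edgeR adjusted p = 4.88e-05), and 4.27 without Scramble replicate 1. Before Dock8, Cbwd1 fell by 0.36 (adjusted p = 0.0214), but did not pass once JagKO4 or Scramble replicate 1 was left out (adjusted p = 0.061 to 0.12). After Kank1, the chromatin remodeller gene Smarca2 had -0.24 (adjusted p = 0.112). It passed without JagKO2 and with GC and length trends removed (adjusted p = 0.0269 to 0.0317).

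The Ifit genes fell together. Ifit1 (34640871 to 34650009) measured 15.1, 15.7 and 9.31 CPM in Scramble and 3.43, 2.80 and 3.19 CPM in JAG2KO. Ifit3 (34583531 to 34588731) measured 15.9, 15.9 and 10.2 CPM in Scramble and 4.73, 1.81 and 2.72 CPM in JAG2KO. In both, Scramble replicate 3 was the lowest of its group and still above every JAG2KO library. The log2 fold changes were -2.09 for Ifit1 (SE 0.21, edgeR adjusted p = 2.3e-05) and -2.18 for Ifit3 (SE 0.29, edgeR adjusted p = 0.000232). Ifit3b had -3.03 (SE 0.34, adjusted p = 5.52e-05). Ifit3 and Ifit3b are close copies that can share or lose reads, so their separate levels are uncertain.

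Ifit2 changed least. Its RefSeq windows, which held no match to the motif, lie at the beginning of its gene model, and the rest of the model was not searched. A link between the motif and the size of a fall was not tested. It measured 39.4, 38.4 and 36.9 CPM in Scramble and 24.6, 24.0 and 24.6 CPM in JAG2KO, and no values overlapped. It fell by 0.65 on the log2 scale (SE 0.08, adjusted p = 0.000105 by edgeR). All 4 Ifit members thus fell, with a median of -2.14. Over all tested genes 12.5% fell and 11.8% rose. Of 31 interferon-stimulated genes on other chromosomes, 20 fell, 0 rose and 11 did not pass, with a median of -0.77. The motif stood in a window of 9 of the 21 of these that had one (42.9%).

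Genes around the Ifit cluster changed less than Ifit1, Ifit3 and Ifit3b. Stambpl1, a deubiquitinase gene, averaged 84.2 ± 6.46 CPM in Scramble against 58.3 ± 5.78 CPM in JAG2KO (SD, n = 3) and fell by 0.53 on the log2 scale (adjusted p = 0.000876, edgeR), near the fall of 0.65 in Ifit2. Lipa, the lysosomal acid lipase gene that ends 23.2 kb before Ifit2, measured 112, 118 and 100.4 CPM in Scramble and 109, 73.7 and 76.8 CPM in JAG2KO, so the groups overlapped. Its log2 fold change was -0.35 (edgeR adjusted p = 0.061). It passed without JagKO2, without a low-count filter, with DESeq2 and with limma-voom (adjusted p = 0.000146 to 0.0414). Pank1, on the other side, had -0.05 (adjusted p = 0.878). Fas and the smooth muscle actin gene Acta2, before Lipa, both rose. Fas measured 5.37, 6.33 and 3.79 CPM in Scramble and 7.62, 10.8 and 10.7 CPM in JAG2KO (log2 fold change 0.91, SE 0.21, edgeR adjusted p = 0.00773). Acta2, which cells of vessel walls also express, had 0.54 (adjusted p = 0.00143).

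**Figure D4:**
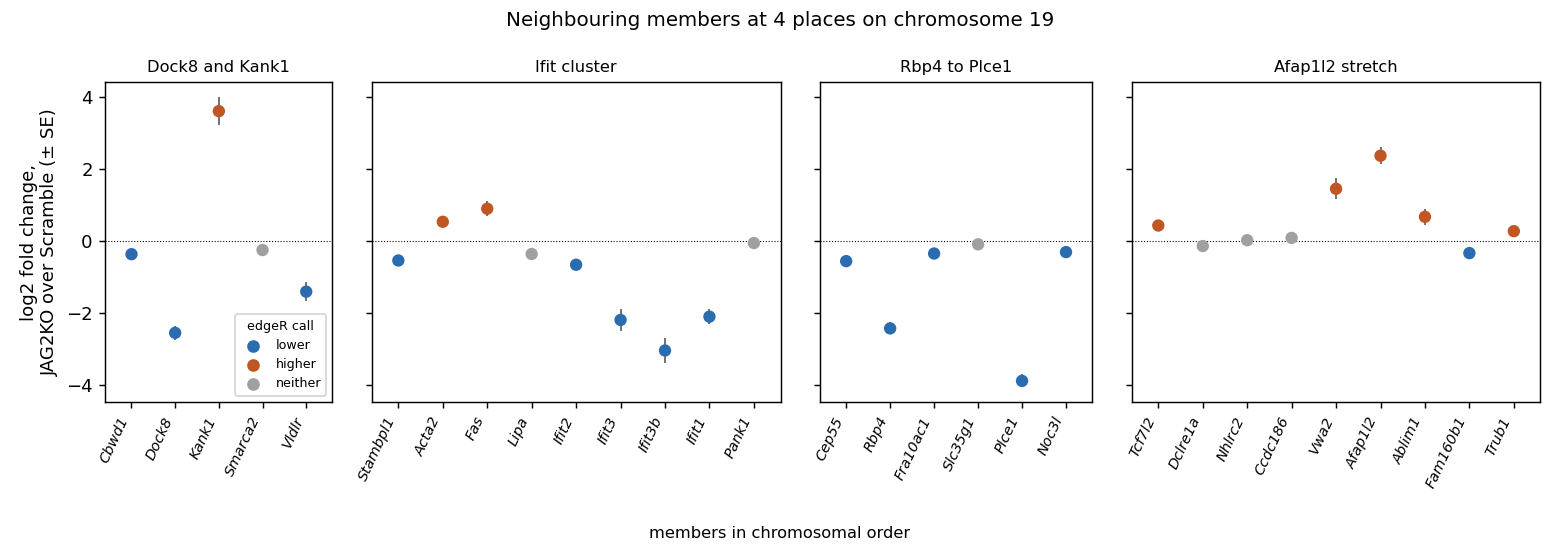
Log2 fold change with its standard error for named neighbouring members at 4 places, in chromosomal order and coloured by edgeR call. Dock8 (-2.54) and Kank1 (3.62) are opposed, the 4 Ifit genes are all below 0, Rbp4 (-2.42) and Plce1 (-3.87) stand far below their neighbours, and Vwa2 (1.46) and Afap1l2 (2.38) stand above theirs.

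The stretch with a median above 0 held a group of rises around Afap1l2, an adaptor gene of Src kinase signalling at actin filaments (minus strand, 56912361 to 57008228). Afap1l2 measured 3.60, 2.36 and 4.66 CPM in Scramble and 23.9, 14.5 and 16.8 CPM in JAG2KO, again without overlap. Its log2 fold change was 2.38 with an SE of 0.24 (adjusted p = 2.8e-05, edgeR). Vwa2, a matrix protein gene (plus strand, 56874249 to 56912078), rose by 1.46 on the log2 scale (SE 0.29, adjusted p = 0.00305). It ends 0.283 kb from the end of Afap1l2 on the other strand, and whether counting used strand is not stated in the labels or notes. Among the 10 members from Tcf7l2 to Trub1, 6 rose and 1 fell. The ends of that stretch were set with the values known, and both end genes were called higher, so its count is a description. In the whole bin of 55 to 60 Mb, 6 of 19 members rose and 3 fell. Over all 418 members 7.42% rose and 30.9% fell. Tcf7l2, a transcription factor gene of the Wnt pathway, rose by 0.44 on the log2 scale (adjusted p = 0.0043).

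**Figure D5:**
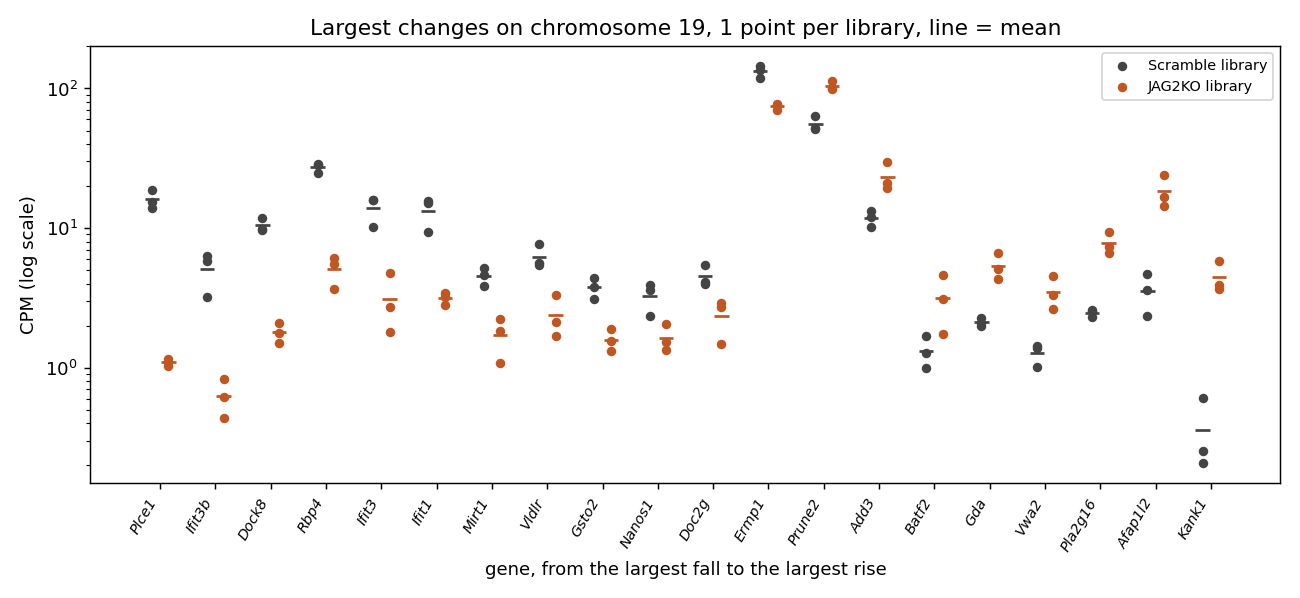
CPM (log scale) of the 20 named members with the largest changes, 1 point per library and a line at each group's mean, Scramble in dark grey and JAG2KO in orange. Plce1 at the left is near 1 CPM in JAG2KO and 13.9 to 18.8 CPM in Scramble, Kank1 at the right is at 3.65 to 5.81 CPM in JAG2KO and under 1 CPM in Scramble; only genes without overlap between the groups were eligible.

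Other large falls were scattered over the chromosome. Vldlr, a lipoprotein receptor gene, averaged 6.24 ± 1.24 CPM in Scramble against 2.37 ± 0.834 CPM in JAG2KO (SD, n = 3; log2 fold change -1.40, edgeR adjusted p = 0.0023). Ermp1, an endoplasmic reticulum peptidase gene, averaged 133 ± 13 CPM in Scramble against 74.4 ± 3.99 CPM in JAG2KO (-0.84, edgeR adjusted p = 1.54e-05). The noncoding RNA gene Mirt1 and the glutathione transferase gene Gsto2 fell by 1.40 and 1.24 on the log2 scale (adjusted p = 0.00332 and 0.0037, edgeR). Mirt1 overlaps an opposite-strand gene model, so its level is uncertain. Nanos1, a translational repressor gene, fell by 1.0 (edgeR adjusted p = 0.0226), a call that did not hold when JagKO4, Scramble replicate 2 or Scramble replicate 3 was left out (adjusted p = 0.0725 to 0.104). Doc2g fell by 0.93 (adjusted p = 0.026). Without Scramble replicate 1 its log2 fold change was -0.76 and the call was lost (adjusted p = 0.115). Its exons overlap a gene model on the same strand, so its level is uncertain.

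Other rises were in genes of varied function. Pygm, the muscle glycogen phosphorylase gene, measured 2.83, 0.872 and 0.865 CPM in Scramble and 4.24, 2.16 and 7.41 CPM in JAG2KO. Its groups overlapped, since Scramble replicate 1 exceeded JagKO3. Its log2 fold change was 1.59 (adjusted p = 0.036), and the call was lost with DESeq2 and when JagKO4 or the second or the third Scramble library was left out (adjusted p = 0.0967 to 0.186). Prune2 averaged 55.4 ± 6.76 CPM in Scramble against 104 ± 8.0 CPM in JAG2KO (SD, n = 3; log2 fold change 0.91, edgeR adjusted p = 2.4e-05). Pla2g16, a phospholipase gene of fat cells, rose from 2.47 ± 0.161 to 7.79 ± 1.40 CPM (1.65, edgeR adjusted p = 8.07e-05). The guanine deaminase gene Gda and the membrane skeleton gene Add3 rose with log2 fold changes of 1.33 and 0.99 (adjusted p = 0.00114 and 0.000919, edgeR). Batf2, a basic leucine zipper gene, had 1.27 (adjusted p = 0.0237). Its call was lost when JagKO2 or the first or the third Scramble library was left out, and with limma-voom (adjusted p = 0.0525 to 0.0861), and it overlaps Arl2 on the other strand.

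Chromosome 19 genes were grouped by function. The groups were written from textbook functions with earlier results of these data known. Of 11 groups, 8 had a median below 0 and 3 a median above 0, among the latter the blood cell genes (0.37). The background was 12.5% lower and 11.8% higher over all tested genes. Over the 418 members, from which the groups were drawn, it was 30.9% lower and 7.42% higher. Among 18 genes of DNA replication, repair and chromosome segregation, 6 fell, 0 rose and 12 did not pass (median -0.18). Pola2, a subunit of the polymerase that starts DNA strands, averaged 159 ± 2.66 CPM in Scramble against 123 ± 1.46 CPM in JAG2KO (SD, n = 3; log2 fold change -0.37, edgeR adjusted p = 0.00062). Rad9a, a DNA damage checkpoint gene, fell by 0.44 (adjusted p = 0.00335), though its exons overlap Ppp1ca on the other strand.

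Among 21 genes of nuclear RNA and RNA processing, 6 fell, 0 rose and 15 did not pass (median -0.20). The RNA polymerase II subunit gene Polr2g and the Integrator complex gene Ints5 fell by 0.46 and 0.47 on the log2 scale (adjusted p = 0.00062 and 0.000912, edgeR). The exons of Ints5 overlap a gene model on the same strand, so its level is uncertain. Snhg1, host of small nucleolar RNAs whose models share its reads, fell by 0.30 (adjusted p = 0.0118). Without Scramble replicate 1 its log2 fold change was -0.25 and the call was lost (adjusted p = 0.0691). Malat1 and Neat1 had -0.28 and 0.30 and did not pass (adjusted p = 0.27 and 0.0684). Malat1 was lowest in JagKO2, at 379 CPM, and its groups overlapped. Without a low-count filter Malat1 passed (adjusted p = 0.0015), and Neat1 did in 3 alternatives: no filter, DESeq2 and the fit without JagKO2 (adjusted p = 0.000174 to 0.0205).

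Mitochondrial energy and redox genes gave 5 of 18 that fell and 0 that rose (median -0.15). The glycolytic mutase gene Pgam1, listed with them, averaged 232 ± 1.77 CPM in Scramble against 157 ± 12 CPM in JAG2KO (SD, n = 3; log2 fold change -0.56, edgeR adjusted p = 0.000104). The mitochondrial ribosome genes Mrpl49 and Mrpl16 fell by 0.39 and 0.37 (adjusted p = 0.00128 and 0.00903), and Mrpl49 overlaps Syvn1 on the other strand. Among 16 members of fatty acid and sterol metabolism, 6 fell and 2 rose (median -0.17). Besides Vldlr and Pla2g16, the endoplasmic reticulum gene Erlin1, which restrains sterol synthesis, fell by 0.46 (adjusted p = 0.000416). The desaturase genes Scd1 and Scd2 had -0.04 and 0.12 and did not pass (adjusted p = 0.752 and 0.368).

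Among 22 growth control and signalling genes, 6 fell and 2 rose, Kank1 and Tcf7l2 (median -0.11). Mxi1, an antagonist of Myc, averaged 116 ± 7.31 CPM in Scramble against 83.3 ± 3.88 CPM in JAG2KO (SD, n = 3; log2 fold change -0.48, edgeR adjusted p = 0.000352). A gene model overlaps Mxi1 on the other strand. Of 9 genes of NF-kappaB, cytokine and death receptor signalling, 3 fell and 2 rose (median -0.23). The cytokine receptor kinase gene Jak2 measured 59.3, 58.4 and 62.2 CPM in Scramble and 45.6, 44.3 and 43.8 CPM in JAG2KO (log2 fold change -0.43, SE 0.07, edgeR adjusted p = 0.000792). The alarmin gene Il33 fell by 0.49 (adjusted p = 0.0101), and JagKO3 with 184 CPM was nearest to Scramble. Without JagKO4 its log2 fold change was -0.43 and the call was lost (adjusted p = 0.0516). Of the T cell checkpoint ligand genes only Cd274, which encodes PD-L1, was a member. It had 8.05 ± 1.74 CPM in Scramble and 8.49 ± 2.59 CPM in JAG2KO (SD, n = 3; log2 fold change 0.07, edgeR adjusted p = 0.853). A gene model overlaps Cd274 on the other strand.

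The cytoskeleton, adhesion and matrix group was the most divided, with 6 of 19 members lower, 5 higher and a median of -0.05. The rises were in Acta2, Add3, Afap1l2, the actin-binding gene Ablim1 and the invasion scaffold gene Sh3pxd2a. Ablim1 had a log2 fold change of 0.68 (adjusted p = 0.0464), its groups overlapped, and its call was lost in 6 alternatives, 4 of them with 1 library left out (adjusted p = 0.0587 to 0.161). Sh3pxd2a had 0.38 (adjusted p = 0.00253) and lost its call with GC and length trends removed (adjusted p = 0.107). Capn1, a calcium-dependent protease gene, fell by 0.36 (adjusted p = 0.000881), though its exons overlap a gene model on the other strand.

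Other cells and the targeted gene were checked in the same libraries. In bulk RNA, fewer cells of a type and less RNA per cell cannot be told apart. The background for the calls below was 12.5% lower and 11.8% higher over all tested genes. Macrophage markers summed to 46.8 to 56.6 CPM in Scramble and 85.1 to 103 CPM in JAG2KO, with 4 of 10 called higher. Endothelial markers summed to 18.6 to 22.1 and 32.7 to 48.2 CPM, with 4 of 7 called higher, and fibroblast and pericyte markers to 712 to 849.9 and 809.5 to 1233 CPM, with 2 of 6 called higher and 1 lower. None of these 3 lists had a marker at 0 in all libraries. T cell markers summed to at most 2.13 CPM. The part of such cells in the members' changes, those of Fas and Acta2 included, was not tested. Of 15 blood cell genes on chromosome 19, 4 were members and none of these passed; Mpeg1, a macrophage gene, averaged 4.45 ± 0.905 CPM in Scramble against 6.10 ± 1.33 CPM in JAG2KO (SD, n = 3; edgeR adjusted p = 0.149). The 7 lung epithelial markers summed to 389 to 398 CPM in Scramble and 283 to 338 CPM in JAG2KO, ranges that did not overlap. Of the 4 that could be tested, 1 was called lower and 0 higher. Nkx2-1 and Sftpb were at 0 in every library and Sftpc was under 1 CPM. Jag2 itself, on chromosome 12, measured 1.52, 1.10 and 1.02 CPM in Scramble and 0.514, 0.799 and 1.11 CPM in JAG2KO, and did not pass (adjusted p = 0.318).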

How the data were processed

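The deposited values are whole-number counts in 1 table, with 55334 versioned Ensembl IDs as rows and the 6 libraries as columns. STAR 2.7.7a and HTSeq 0.11.2 stand in the submitters' processing notes; the sources used here do not give build, annotation, strand setting or filters. Of the IDs, 55154 matched GENCODE M21 (GRCm38) by stable ID, which gave symbols, positions and exon overlaps; it may differ from the annotation counted on. Scramble columns carry the titles' numbers; JAG2KO columns run from 2 to 4 and were used as that group's libraries.

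Testing used edgeR 4.0.16 under R 4.3.3 (filterByExpr, minimum count 10, minimum total 15; TMM; quasi-likelihood F test, 4 residual degrees of freedom; Benjamini-Hochberg over 16049 genes). CPM in values use TMM sizes, and membership uses column totals. A standard error is the log2 fold change over the root of F. Library differences use log2 CPM with prior count 2. Within a group, chi-square per degree of freedom between libraries was 12.2 to 31, above sampling noise. The stretches came from least absolute deviations, their number (at most 12) from the Bayesian information criterion. The fits were tested on simulated data, that of the stretches only with steps larger than the members' median shift.

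Members, gene groups, tests and the naming rule were chosen with earlier results of these data known. The rule names the 12 largest falls and 8 largest rises among called members without overlap and with a proper name, in each gene group the called members of smallest p, at most 3 (or 1 member where none was called), and the ends of each stretch. Flanking genes and some known genes (Malat1, Neat1, Scd1, Scd2, Fads1, Fads2, Fads3, Nfkb2, Acta2, Ablim1, Sh3pxd2a, Pygm) were named after their values were seen. Alternatives were RLE factors, library totals, no filter, CPM 1 in 3 libraries, DESeq2 1.42.0, limma-voom (limma 3.58.1), removal of GC and length trends (natural splines, 5 degrees of freedom), each library left out, other level minimums, protein-coding members, and other bins, windows and stretch settings. A few items, 1 gene group among them, are not reported here.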

Additional observations from a re-analysis of the deposited data

How the results depend on the processing

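All 160 called members kept their direction in 13 alternative fits, and 81 of them their call in each. Leaving out 1 library gave 86 to 133 members lower and 21 to 34 higher, with a members' median of -0.17 to -0.13. Without Scramble replicate 2 that median was -0.13, which moved it by more than the SD over the 9 library pairs (0.02). The pairs share libraries, so this SD is not a spread among independent replicates. With GC and length trends removed, 147 members were lower and 29 higher. A minimum mean CPM of 10 left 20 higher, with fewer members. With bins of 10 Mb there were 7, all with a median below 0, and that of 50 to 60 Mb was at -0.03. The number of stretches was 3 with at least 5 members each and also 3 with least squares, which set apart Ifit2 to Plce1 (23 members, median -0.21); the cause was not tested. No other scaling or tool moved a count by over 1.5 times, and none moved the median of all genes by over 0.02. No paired analysis was possible because the JAG2KO columns do not carry the replicate numbers of the labels. Depth limits genes near the minimum: 3 counts are worth 0.068 to 0.0811 CPM.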
